A study of Macaca fascicularis with 6 samples.

Results

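The proteasome is the protease complex that degrades most ubiquitin-tagged proteins of a cell. Its barrel-shaped 20S core has outer rings of alpha subunits, which form the gate, and inner rings of beta subunits, which carry the proteolytic sites. The 19S cap has a base, whose ATPases unfold the substrate and thread it into the core, and a lid, which removes ubiquitin. In cells exposed to interferon-gamma, inducible catalytic subunits take the places of the constitutive ones and form the immunoproteasome. In heart muscle the complex turns over sarcomere and channel proteins. Genes of these subunits were taken by the gene name in the design of each probe set, or by the annotated gene symbol where no design name existed, and were those named PSMA to PSMG followed by digits alone. This rule found 42 of the 21485 genes on the array, with 86 probe sets, and used no measured value.

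RNA of the left ventricular free wall was hybridized to Affymetrix arrays designed for the rhesus macaque, 1 for each animal, in male cynomolgus monkeys of 4 to 6 years. The intact group held 4 non-operated hearts (animals 11, 12, 13 and 14), and the block group held 2 hearts (animals 2 and 8) at 8 months after catheter ablation of the atrioventricular node. All hearts were excised under thiopental sodium. Both animals with block had also been given the antiarrhythmic dl-sotalol by mouth in repeated challenges, and moxifloxacin, and had been anesthetized with ketamine and xylazine for the ablation and for repeated examinations after it. They were the animals whose hearts were taken because torsade de pointes had recurred in them, so the block, the drugs and the arrhythmia cannot be told apart. The specimens were transmural and contain every cell type of the wall, so fewer cells of a type and less RNA per cell cannot be told apart either. The numbers mark animals and pair none of them across the groups.

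The MAS5 signals (fluorescence intensity on a linear scale) were scaled to a common 2% trimmed mean, and signals below are on that scale. Before scaling, the trimmed mean lay between 75.1 and 88.2 on intact arrays and was 54.6 and 73.5 in animals 2 and 8 (exact permutation p = 0.0667, 2-sided, the smallest that 15 splits allow). The GAPDH 3'/5' signal ratio, a sign of RNA or labelling quality, was 2.17 to 2.65 on intact arrays and 5.05 and 3.05 in animals 2 and 8 (exact permutation p = 0.0667). The same ratio for ACTB overlapped, at 7.85 to 10.9 on intact arrays and 11.6 and 8.98 in animals 2 and 8 (exact permutation p = 0.333). What part these array differences have in the values below was not tested. Cardiomyocyte markers were bright on all arrays: TNNT2, the cardiac troponin T, gave 10221 to 11886 on intact arrays and 13271 and 10765 in animals 2 and 8. Only the probe set of MYH7, the slow myosin heavy chain, was dim, at 61.0 to 196. Of 9 measured cardiomyocyte markers, 8 had a fold above 1, with a median log2 fold change of 0.17, and their summed signals were 66774 to 75082 on intact arrays against 90704 and 73558.

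No proteasome gene passed the test between block and intact hearts. A gene was represented by its brightest probe set called Present (above its mismatch control) on at least 2 arrays. Of the 42 genes, 41 had such a probe set and 39 were Present on all 6 arrays. PSMD8, a lid subunit, was Absent on all 6, with a mean signal of 23.2 in intact and 15.1 in block hearts, and was not tested. In limma, 0 of 41 genes had an adjusted p under 0.05, beside 0.0309% of all 12953 genes tested the same way. At an unadjusted p under 0.05, 0 genes were higher (3.78% of all genes) and 1, PSMB8, was lower (4.45% of all genes). Over all 22577 probe sets the fit called 5, with 1 higher and 4 lower.

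The median spread between intact animals was smaller for these genes than over all genes, which were not matched to them for brightness. The intervals below hold for the brightest probe set of each gene and make no allowance for the array differences given above. The median SD of log2 signals among intact hearts was 0.17 over the proteasome genes Present on all arrays, and 0.24 over all genes Present on all arrays. The lists of partner genes and cell markers described below lay on both sides of the proteasome value. They ran from 0.12 for ubiquitin and its activating enzyme to 0.60 for fibroblast markers. Single members were wide, with an SD of 0.72 for PSMD13, 0.65 for PSMA7 and 1.10 for the dim PSMB3. The 95% confidence interval of the fold change stayed within a 2-fold change in either direction for 37 of 41 genes (90.2%), against 66.2% of all genes. The other 4 were PSMB8, PSMD13 and the dim PSMB3 and PSMA8. Among genes Present on all arrays, the shares were 94.9% of 39 proteasome genes and 78.9% of all 9641 genes. A fold of 1.5 or more in either direction was seen for 2 of 41 genes (4.88%), PSMB8 and PSMA8, against 12.8% of all genes. Among genes Present on all arrays, such a fold was seen for 1 of 39 proteasome genes and 752 of all 9641 genes. Folds are ratios of geometric means, block over intact.

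**Figure D1:**
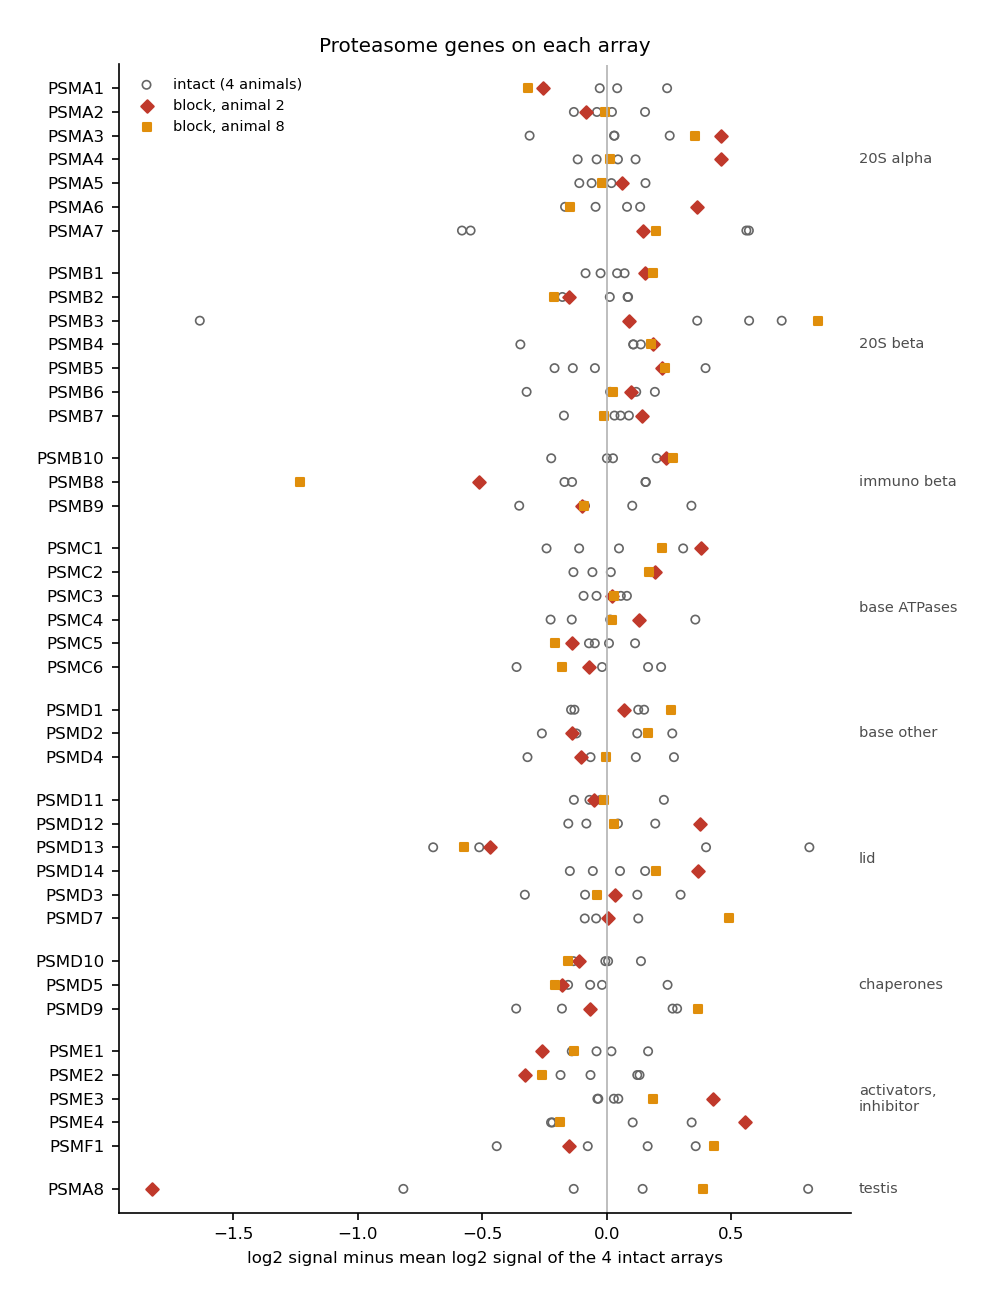
Log2 signal of the 41 tested proteasome genes on each array, as the difference from the gene's mean over the 4 intact arrays, by part of the complex (open circles, intact; diamonds, animal 2; squares, animal 8). Most genes lie within 0.5 of the intact mean on every array, PSMB8 is lower in both block hearts, and PSMA7 and PSMD13 split the intact animals.

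The median log2 fold change over the 41 genes was 0.06, beside -0.00 over all genes, and 25 of 41 genes (61.0%) had a fold above 1, beside 49.5% of all genes. Animals were compared by the median deviation of the 29 tested constitutive subunits of core, base and lid from their intact means. Animals 11, 12, 13 and 14 had medians of 0.11, -0.08, 0.05 and -0.05. It was 0.09 in animal 2 and 0.03 in animal 8, so both block hearts lay inside the range of the intact hearts. Both block signals were above all intact signals for 6 genes (14.6%, beside 8.58% of all genes), which were PSMA3, PSMB1, PSMB4, PSMB10, PSMD14 and PSME3. Both were below all intact signals for 5 genes (12.2%, beside 9.65% of all genes), which were PSMA1, PSMB8, PSMC5, PSMD5 and PSME2. These counts moved with the values used: the authors' normalized values gave 3 higher and 1 lower (7.23% and 8.47% of all genes), and averaging the probe sets of each gene gave 2 higher and 5 lower (8.19% and 9.51% of all genes). Leaving out animal 2 or animal 8 gave 11 and 13 higher (21.4% and 22.8% of all genes), and leaving out animal 12 gave 9 lower (13.4% of all genes).

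**Figure D2:**
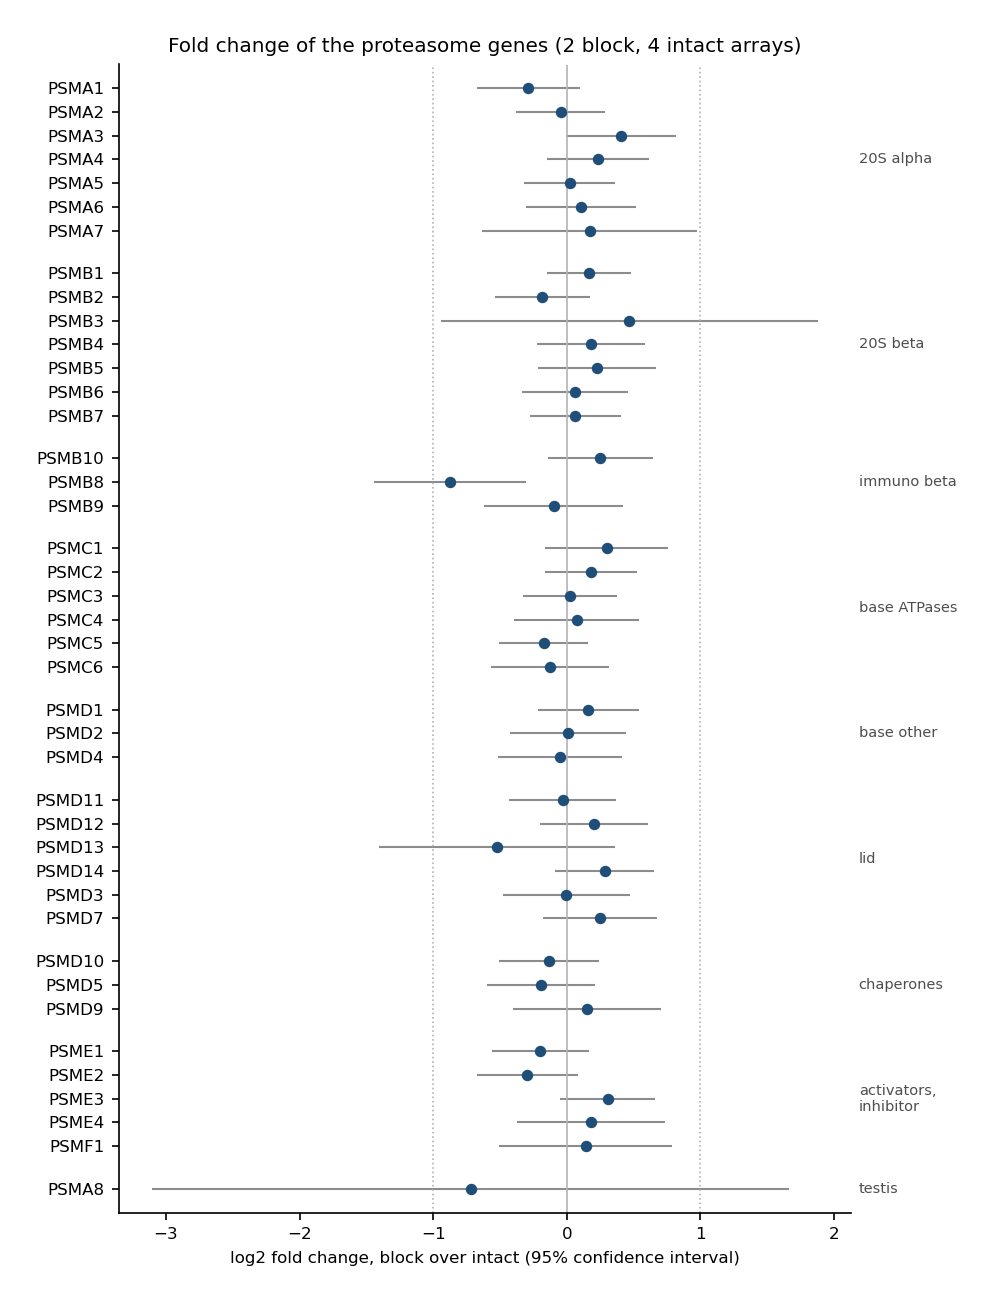
Log2 fold change of block over intact hearts for the 41 tested genes (points) with the 95% confidence interval of the limma fit (lines); the dotted lines mark a 2-fold change. Only the interval of PSMB8, from -1.45 to -0.30, leaves out 0, and its p did not pass after adjustment.

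Among the alpha subunits of the core, 5 of 7 genes had a fold above 1 and the median log2 fold change was 0.11, with 0 of 7 passing the test in either direction. PSMA3, an outer ring subunit (chromosome 7:121271497-121286519 of the rhesus assembly Mmul_051212, the build of the array annotation), gave 923, 791, 625 and 792 in animals 11 to 14. Its signals were 1066 and 992 in animals 2 and 8. The block hearts were both above the brightest intact heart. Means were 783 ± 122 (SD, n = 4) in intact and 1029 ± 52.4 (SD, n = 2) in block hearts, at a fold of 1.33 (log2 0.41, SE 0.18, limma adjusted p = 0.614). Another PSMA3 probe set had a log2 fold change of 0.15, and a dim one, Present on 2 arrays, had -0.07.

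PSMA1 had the opposite order. It gave 1156, 942, 1101 and 1328 without block and 939 and 902 with block. The block hearts were below the lowest intact heart, but animal 2 by a margin far smaller than the intact spread. The means were 1132 ± 159 (n = 4) and 921 ± 26.4 (n = 2), a fold of 0.819 (limma adjusted p = 0.697). PSMA4, whose product takes part in closing the gate, gave 2133, 2031, 1914 and 1816 against 2705 and 1988. Animal 2 alone was above the intact range, and the log2 fold change of 0.24 (fold 1.18, adjusted p = 0.752) was 0.01 without it. PSMA6 had the same shape, with 2265 to 2792 against 3269 and 2299 (fold 1.08). PSMA2 and PSMA5 had folds of 0.968 and 1.01, and the interval of PSMA5 ran from -0.32 to 0.36 on the log2 scale.

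PSMA7 separated the intact animals from each other. Its brightest probe set gave 1313 and 1282 in animals 11 and 12 but 2830 and 2850 in animals 13 and 14, with 2121 and 2202 in the block hearts between them. Its other probe set did not split them, at 824, 694, 820 and 739, and gave 562 and 713 in the block hearts. The 2 probe sets had log2 fold changes of 0.17 and -0.28, neither past the test (adjusted p = 0.921 and 0.703). PSMA8, the alpha subunit known from the testis, had signals of 1.38 to 8.55 over all arrays and was Present on 3 of them, so its fold of 0.607 rests on values near the floor of the array.

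**Figure D3:**
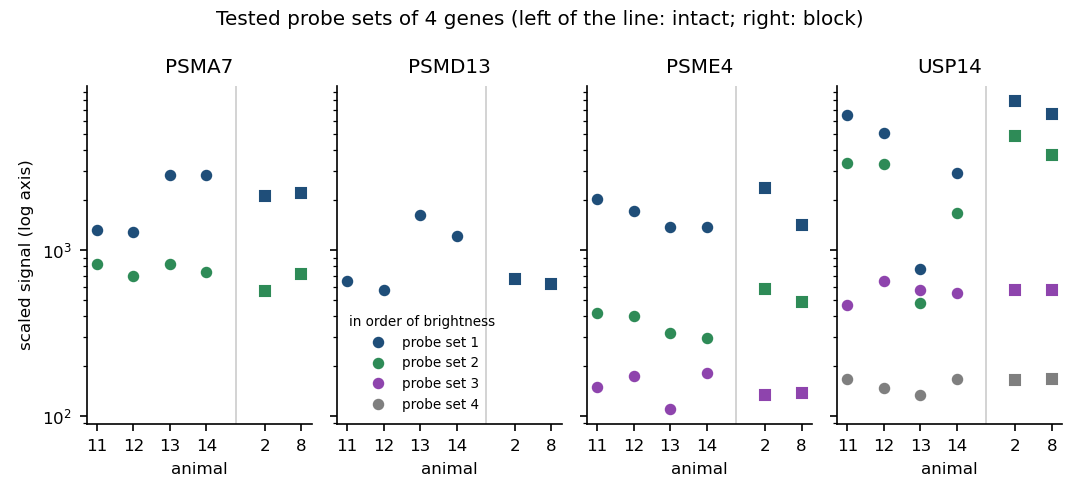
Scaled signals (log axis) of the tested probe sets of PSMA7, PSMD13, PSME4 and the proteasome-associated USP14 in each animal (circles, intact; squares, block; colours number a gene's probe sets from the brightest). The brightest probe set of PSMA7 and the only one of PSMD13 are higher in animals 13 and 14 than in 11 and 12, the brighter pair of USP14 is lowest in animal 13, and other probe sets of PSMA7 and USP14 show no such split.

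Of the 7 constitutive beta subunits, 6 had a fold above 1 and the median log2 fold change was 0.17, with 0 of 7 passing the test. By their brightest probe sets, the catalytic subunits had folds from 1.04 to 1.17. PSMB5, the chymotrypsin-like subunit, gave 968, 712, 636 and 669 in intact hearts and 857 and 865 in block hearts. The block hearts lay inside the intact range, and the fold was 1.17 (log2 0.23, SE 0.20, limma adjusted p = 0.789). Its interval of -0.22 to 0.67 on the log2 scale does not leave out a 1.5-fold rise. Its second probe set gave 510, 424, 314 and 314 against 502 and 536 (log2 0.44, adjusted p = 0.658). PSMB6, the caspase-like subunit, gave 1621, 1507, 1707 and 1195 against 1597 and 1521, a fold of 1.04. PSMB7, the trypsin-like subunit, gave 1530, 1307, 1566 and 1504 against 1623 and 1461, a fold of 1.05. For both, the block hearts overlapped the intact hearts, and the intervals of -0.34 to 0.46 and -0.27 to 0.40 leave out a 1.5-fold change.

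The non-catalytic beta subunits PSMB1 and PSMB4 were above every intact heart in both block hearts, by small amounts. PSMB1 gave 1154 to 1287 in intact hearts and 1360 and 1391 in block hearts (fold 1.12, adjusted p = 0.785). PSMB4 gave 1058, 1059, 1081 and 773 against 1119 and 1113 (fold 1.13, adjusted p = 0.817), with animal 14 well below the other intact hearts. PSMB2 was at 542 to 651 against 552 and 530, a fold of 0.881. PSMB3 was dim, at 54.2, 42.8, 10.7 and 49.5 against 35.4 and 59.9, and was Present on 3 arrays. Its fold of 1.38 (adjusted p = 0.871) was the highest among the beta subunits and had an interval from -0.94 to 1.88, and without animal 13 its log2 fold change was -0.08.

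The immunoproteasome subunits had folds on both sides of 1, none passed the test, and they were not compared with each other. PSMB8, which replaces PSMB5, had the lowest unadjusted p of all proteasome genes. Its signals were 125, 102, 99.8 and 125 in intact hearts and 78.6 and 47.8 in animals 2 and 8. Every intact heart was brighter than both block hearts, and all 6 arrays called it Present. The means were 113 ± 14.0 (n = 4) and 63.2 ± 21.8 (n = 2), a fold of 0.546 (log2 -0.87, SE 0.25, 95% interval -1.45 to -0.30, limma unadjusted p = 0.00725). After adjustment over all probe sets, p was 0.428, so the difference did not pass. The log2 fold change was -0.51 without animal 8 and -1.23 without animal 2. With signals floored at 100, which most of its values are near, it was -0.17. A second PSMB8 probe set was Absent on all arrays, at a mean of 17.7 against 7.91.

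PSMB9, which replaces PSMB6, gave 126, 91.9, 148 and 110 in intact hearts and 109 and 110 in block hearts. The block hearts were inside the intact range, and the fold was 0.935 (adjusted p = 0.932). PSMB10, which replaces PSMB7, gave 401, 349, 299 and 355 against 412 and 420. Both block hearts were above the intact hearts, animal 2 by a margin smaller than the intact spread, and the fold was 1.19 (adjusted p = 0.740). Its second probe set had a log2 fold change of 0.22 with overlapping groups. PSMB8 and PSMB9 lie close together on chromosome 4 in the array annotation, at 32537136-32538991 and 32551816-32555212. In the RefSeq annotation of the cynomolgus genome they lie among the genes of the peptide transporter of antigen presentation, in the order PSMB9, TAP1, PSMB8, TAP2. TAP1, named here for its position, gave 89.9 to 160 in intact hearts and 121 and 89.0 in block hearts (fold 0.846), and TAP2 was dim, at 14.2 to 28.3 against 32.8 and 17.1.

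The inducible subunit was set against its constitutive counterpart within each array, as the difference of log2 signals, a quantity that does not depend on how the arrays were scaled. For PSMB8 minus PSMB5 this difference was lower in block hearts by 1.10 on the log2 scale (a ratio of 0.466). Centred on the intact mean, animals 11 to 14 had -0.24, -0.09, 0.04 and 0.29, and animals 2 and 8 had -0.74 and -1.47. The groups did not overlap, and the exact permutation p was 0.0667, the smallest the design allows (0.200 adjusted over the 3 pairs, 2-sided). PSMB9 minus PSMB6 differed by -0.16 (exact p = 0.533) and PSMB10 minus PSMB7 by 0.19 (exact p = 0.467), each with groups that overlapped.

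**Figure D4:**
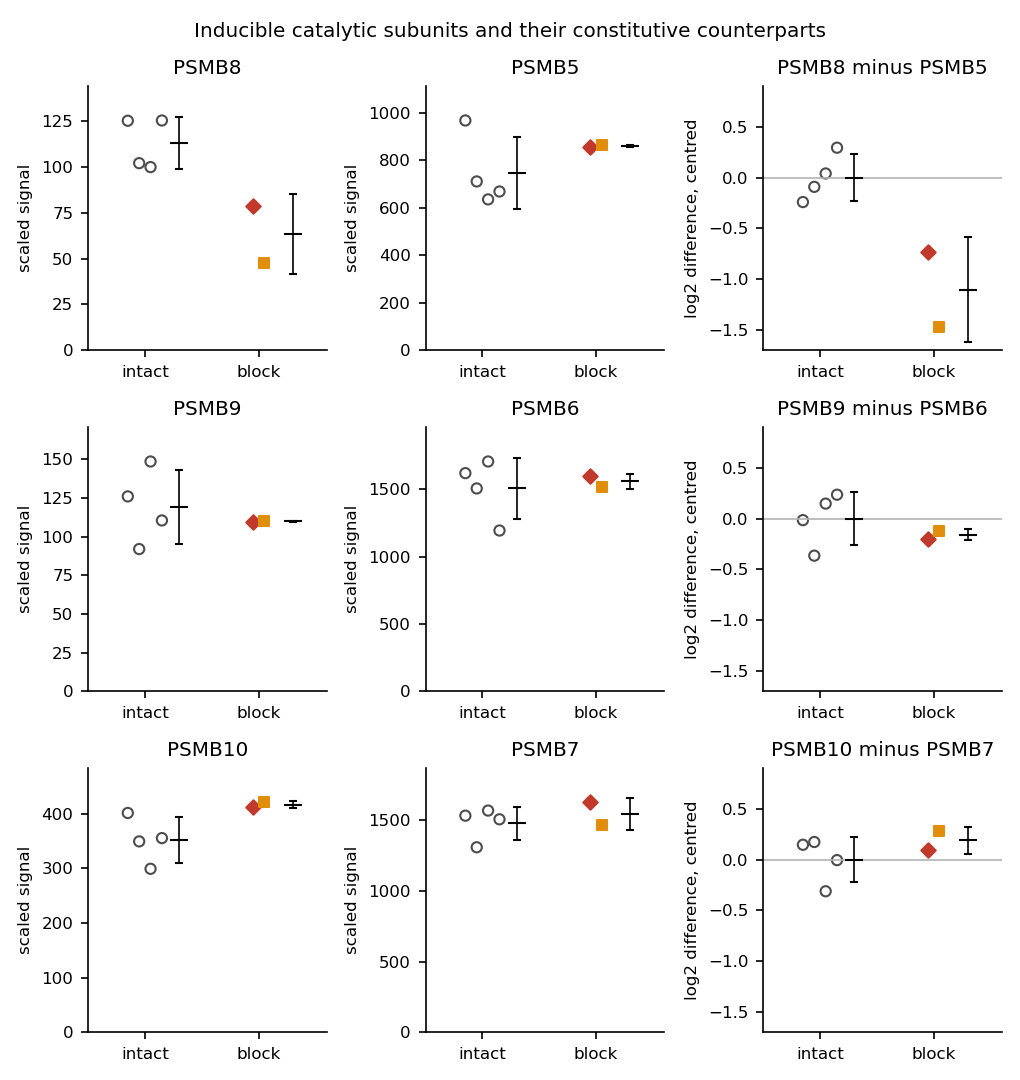
Scaled signals of the inducible subunits (left column) and their constitutive counterparts (middle column), and their log2 difference within each array centred on the intact mean (right column); circles are intact hearts, the diamond animal 2 and the square animal 8, with mean and SD beside them. PSMB8 and its difference from PSMB5 are lower in both block hearts, PSMB10 is above the intact hearts in both, and the differences of the other pairs overlap.

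The interferon-inducible set of PSMB8, PSMB9, PSMB10, PSME1 and PSME2 had 4 of 5 folds below 1 and a median log2 fold change of -0.20, beside -0.00 over all genes. The inducible subunits are plentiful in leukocytes, and the leukocyte markers that could be tested were mostly above 1 in fold. Of 11 tested, 10 had a fold above 1, with a median log2 fold change of 0.33, and 0 passed the test. Their summed signals were 851 to 1193 on intact arrays and 1070 and 1647 in animals 2 and 8. PTPRC, the pan-leukocyte CD45, gave 50.1 to 60.0 on intact arrays and 95.2 and 50.8 in animals 2 and 8, and CD68 of macrophages gave 34.5 to 46.5 against 52.7 and 41.3. Of the 16 listed markers, CD3E, CD2, MS4A1, CD79A and NKG7, all of lymphocytes, were below the detection limit of 2 Present calls. They were not tested, so lymphocyte markers are few among the 11. The summed leukocyte signal was above the range of the intact arrays in animal 8 alone, and PTPRC was above its own in animal 2 alone. Whether leukocyte content has a part in the PSMB8 values was not tested. The markers of endothelial cells and fibroblasts had median log2 fold changes of -0.02 and 0.09, with sums of 3190 to 3807 against 3177 and 3819, and of 11586 to 21196 against 13683 and 19395. PECAM1 and VWF of endothelial cells gave 869 to 1080 against 746 and 1407 and 570 to 702 against 677 and 449, and COL1A1 and DCN of fibroblasts 2526 to 6391 against 2996 and 4303 and 3510 to 4585 against 4090 and 5515. What part the makeup of cells has in the proteasome values was not tested.

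In the 19S base, the 6 ATPases had folds from 0.886 to 1.23 and a median log2 fold change of 0.05, with 4 above 1 and none passing the test in the limma fit. PSMC1, an ATPase whose tail docks on the core and helps to open the gate, gave 197, 236, 176 and 161 in intact hearts and 247 and 222 in block hearts. Animal 8 lay inside the intact range, and the fold was 1.23 (log2 0.30, SE 0.20, limma adjusted p = 0.736). PSMC5 gave 645 to 733 against 616 and 587, with both block hearts below the intact hearts (fold 0.886, adjusted p = 0.787). PSMC3 was nearly level, at 348 to 393 against 377 and 379 (fold 1.02), and PSMC4 and PSMC6 had folds of 1.05 and 0.917. PSMC2 had a fold of 1.13 by its brightest probe set, but its other probe sets had log2 fold changes of -0.45 and -0.17.

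The other base subunits, the scaffolds PSMD1 and PSMD2 and the ubiquitin receptor PSMD4, had a median log2 fold change of 0.01. PSMD1 gave 661, 667, 810 and 797 in intact hearts and 766 and 872 in block hearts. The groups overlapped, and the fold was 1.12 (adjusted p = 0.823). PSMD2 had means of 995 ± 162 and 999 ± 148, a fold of 1.01, and PSMD4 means of 217 ± 37.1 and 207 ± 10.4, a fold of 0.964.

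In the lid, 3 of 6 tested genes had a fold above 1 and the median log2 fold change was 0.10, with 0 passing the test. PSMD14, the metalloprotease that cuts ubiquitin chains from the substrate, gave 525, 426, 490 and 454 in intact hearts and 609 and 541 in block hearts. Every intact heart was lower than both block hearts. The means were 474 ± 43.1 (n = 4) and 575 ± 47.7 (n = 2), a fold of 1.22 (log2 0.28, SE 0.16, limma adjusted p = 0.681). Its second probe set showed the same order, with 137 to 162 in intact hearts and 190 and 189 in block hearts (log2 0.33, adjusted p = 0.660). PSMD7, the partner of PSMD14 in the lid, gave 271 to 315 against 289 and 405, so animal 8 alone was high (fold 1.19).

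PSMD13 split the intact animals as PSMA7 did. It gave 649 and 571 in animals 11 and 12, 1628 and 1221 in animals 13 and 14, and 669 and 623 in the block hearts. The block hearts were at the level of animals 11 and 12, below animals 13 and 14, at a fold of 0.697 (log2 -0.52, SE 0.39, adjusted p = 0.761). PSMD12 had means of 495 ± 53.4 and 571 ± 96.7, a fold of 1.15. PSMD3 and PSMD11 had folds of 0.998 and 0.979, with intervals from -0.48 to 0.47 and from -0.43 to 0.37. PSMD6, a lid subunit that the array lists under its older name p44S10 and that the rule therefore left out, was looked up after the values were seen, at 652 ± 31.3 in intact and 684 ± 18.6 in block hearts (fold 1.05, adjusted p = 0.919).

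The chaperones that help to assemble the base had a median log2 fold change of -0.13, with 2 of 3 folds below 1. PSMD5 gave 258, 242, 266 and 320 in intact hearts and 238 and 234 in block hearts. Both block hearts were below the intact hearts, animal 2 by a small margin, and the fold was 0.874 (adjusted p = 0.801). PSMD10, known as gankyrin, gave 228 to 276 against 232 and 225 (fold 0.912), and PSMD9 gave 164 to 257 against 201 and 272 (fold 1.11). The PSMG chaperones of the core were not found by the rule. Under the older names DSCR2 (PSMG1) and TNFSF5IP1 (PSMG2), also looked up afterwards, the folds were 1.03 and 1.14.

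Among the activators that dock on the core in place of the 19S cap, and the inhibitor, 0 of 5 genes passed the test in either direction. PSME1 and PSME2 form the interferon-inducible cytosolic activator PA28. PSME2 gave 510, 409, 507 and 445 in intact hearts and 371 and 388 in block hearts. No block heart reached the intact range, and the fold was 0.815 (log2 -0.29, SE 0.17, limma adjusted p = 0.676). PSME1 gave 483 to 597 against 445 and 486, a fold of 0.872 (adjusted p = 0.778), with animal 8 just inside the intact range. PSME3, the nuclear relative of this activator, was in the opposite order. It gave 371, 350, 351 and 366 in intact hearts and 483 and 409 in block hearts. The intact hearts lay close together, and both block hearts were above them, at a fold of 1.24 (log2 0.31, SE 0.16, adjusted p = 0.655). Its dimmer probe sets had log2 fold changes of 0.35 and -0.16. The array annotation gives the brightest PSME3 probe set the symbol NUTF2, and the design name was followed here. The brightest probe set of PSMA6 is annotated as CTAGE5, and that of PSMD4 as PIP5K1A and PSMD4 together. The difference between PSME2 and PSME3 was not tested.

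PSME4, the large nuclear activator PA200, depended on the probe set. The brightest gave 2032, 1725, 1374 and 1379 in intact hearts and 2356 and 1409 in block hearts, a fold of 1.13 (adjusted p = 0.872) with overlapping groups. A second gave 414, 400, 315 and 296 against 582 and 484, with both block hearts above the intact hearts (log2 0.59, unadjusted p = 0.0163, adjusted p = 0.495). The dimmest gave 110 to 182 against 133 and 137 (log2 -0.16). The inhibitor PSMF1 was dim, at 54.1 to 94.2 against 66.3 and 99.2 (fold 1.10). Over all proteasome genes, 18 had several tested probe sets, and for 9 of them the probe sets disagreed in the sign of the fold change. The array was designed on rhesus sequence. The array annotation lists alignments of its own targets to the rhesus assembly, so their identity does not measure divergence of the cynomolgus sequence. For 7 of the 40 genes with a listed alignment of the brightest probe set this identity was under 95%. PSMB5 was lowest at 72.6%, and PSME2 was at 91.9%. PSME2 was aligned to chromosome 5 and PSME1 to chromosome 7, although they are near each other in the RefSeq annotation of the cynomolgus genome.

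**Figure D5:**
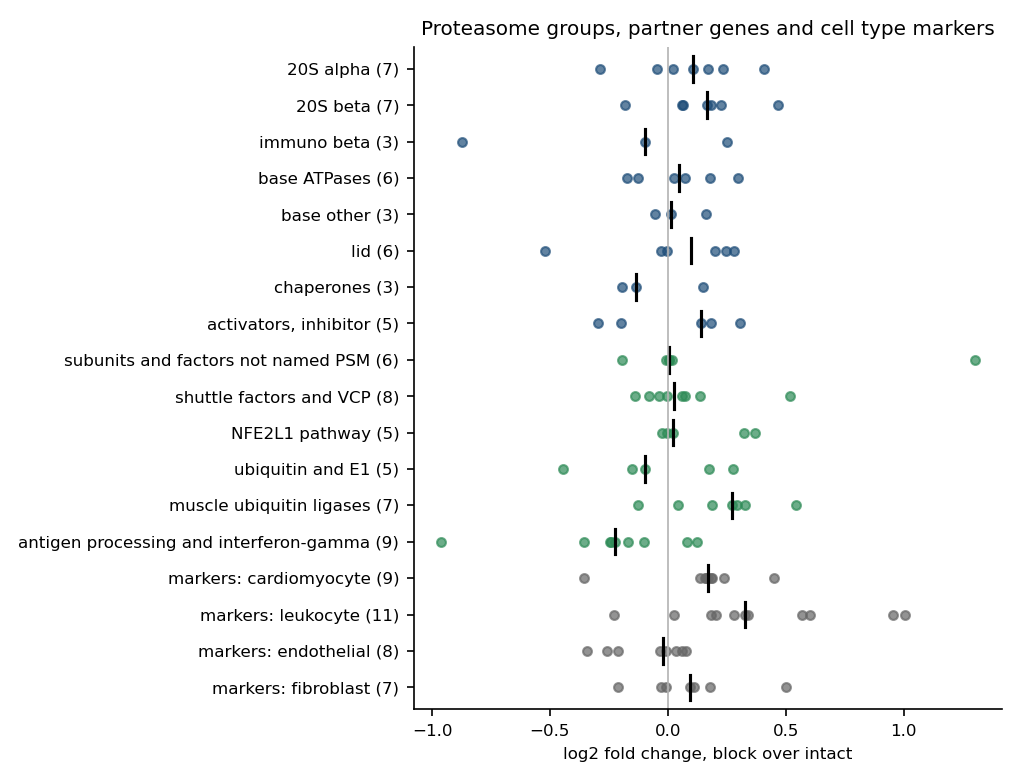
Log2 fold change, block over intact, of each tested gene (points) and its median (bar) in the parts of the proteasome, in lists of partner genes and in cell type markers, with the number of genes in brackets. The medians of the 8 proteasome parts drawn lie between -0.13 and 0.17, with PSMA8 not drawn, and among the partners USP14, at 1.30, is farthest from 0.

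Genes that work with the proteasome were taken from lists of partners, and 0 of their 40 tested members passed the test. At an unadjusted p under 0.05, 3 of the 40 were higher and 0 lower, beside 3.78% and 4.45% of all genes. Among 6 tested subunits and factors whose names do not begin with PSM, the median log2 fold change was 0.00. USP14, the deubiquitinase bound to the base, gave 6516, 5068, 767 and 2895 in intact hearts and 7878 and 6627 in block hearts. The study had itself tabulated USP14 on these arrays, at lower folds than here and without its mark for a large change. It computed its folds in other software, and why they differ from those here was not tested. The block hearts were above the intact hearts, which varied widely, and the fold was 2.47 (log2 1.30, SE 0.71, limma adjusted p = 0.665). The low value of animal 13 weighs more in this ratio of geometric means than in the arithmetic means. Those were 3811 in intact and 7252 in block hearts. The second USP14 probe set had the same shape (log2 1.30), while the dimmer pair had log2 fold changes of 0.03 and 0.11. ADRM1, a ubiquitin receptor of the base, gave 135 to 165 against 124 and 129 (fold 0.873).

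Transcription factors that act on proteasome genes were in the list around NFE2L1, which drives these genes when proteasome activity is short. NFE2L1 itself gave 1153, 1287, 1368 and 1313 in intact hearts and 1519 and 1793 in block hearts. Both block hearts were above the intact hearts, and the fold was 1.29 (log2 0.37, SE 0.15, unadjusted p = 0.0386, limma adjusted p = 0.577). MAFK, one of its dimer partners, had a fold of 1.25 with overlapping groups, and NFE2L2 a fold of 0.998. The median over the 5 tested genes of this list was 0.02.

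No gene of substrate delivery or ubiquitin supply passed the limma test. Among the 8 tested genes of shuttle factors and VCP, the segregase that extracts ubiquitinated proteins, the median log2 fold change was 0.03. UFD1L, a cofactor of VCP, gave 209 to 319 in intact hearts and 334 and 403 in block hearts (fold 1.43, unadjusted p = 0.0324, adjusted p = 0.558). The median over the 5 tested genes of ubiquitin and its activating enzyme was -0.10. Of these, UBB gave 6823 to 8527 against 10058 and 8416 (fold 1.21, adjusted p = 0.668), with overlapping groups.

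The muscle ubiquitin ligases had 6 of 7 folds above 1 and a median log2 fold change of 0.27. TRIM55, a ligase of the sarcomere, gave 862, 675, 942 and 960 in intact hearts and 1378 and 1116 in block hearts. Both block hearts were above the intact hearts, and the fold was 1.46 (log2 0.54, SE 0.19, unadjusted p = 0.0197, adjusted p = 0.509). FBXO40 had a fold of 1.25, and FBXO32, the atrophy ligase atrogin-1, gave 1468 to 1846 against 1320 and 1709 (fold 0.916). In the list of antigen processing and interferon-gamma response, 7 of 9 folds were below 1, with a median of -0.22 on the log2 scale. TAPBP, the loading factor tapasin, gave 318 to 409 against 278 and 272, both below the intact hearts (fold 0.782, adjusted p = 0.640), and GBP2 was dim, at 12.9 to 23.0 against 5.24 and 14.7. By animal, the median deviation of this list was -0.02 in animal 2 and -0.37 in animal 8.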

How the data were processed

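Per the labels and the study's methods, total RNA of each left ventricle was labelled by 3' in vitro transcription and hybridized to 1 array. The authors computed the signals (intensity, linear) with MAS5, of a version not given in the sources used here. For each probe set they deposited a detection call, a detection p-value and a normalized log2 value. The normalized log2 values of the authors were rebuilt from the signals as a check. The 6 deposited columns of probe pairs were not used.

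Each array was scaled so that its 2% trimmed mean equalled that of the others, and log2 was then taken with no offset. Control probe sets and probe sets Present on fewer than 2 arrays were left out. Block was compared with intact by limma 3.58.1 under R 4.3.3 (eBayes with a trend), 2-sided, with Benjamini-Hochberg adjustment over all 22577 probe sets tested and a threshold of 0.05. A gene is given by its brightest tested probe set. Pairs of subunits were compared by an exact permutation test over the 15 splits of the arrays. The number of arrays limits the precision, above all in the block group of 2 animals. The limma p-values set the group difference against the spread between these animals, moderated over all probe sets tested. The fit was tested on simulated data. Python 3.11.15 with pandas 2.3.3 and matplotlib 3.10.9 was used.

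Values on each array are given for the 10 members with the lowest p, the catalytic pairs and the member of each subgroup with the largest change. For other members they are given in part, and values of further members named beside these were picked after they were seen. Of each partner list the 2 largest changes are named, and of each cell list the defining markers. The results of some partner genes that this rule selects are not reported here. The members and all gene lists were chosen with earlier results of these data known. A search of promoters for motifs that had been planned was not run. Alternatives were other scalings, an offset of 32, a floor of 100, other detection filters, other variance models, averaging the probe sets of a gene, annotated symbols first and leaving out each animal.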

Additional observations from a re-analysis of the deposited data

Results flagged for a closer look

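PSMB4 was the only one of 41 proteasome genes with an intact heart set far apart from the others. Animal 14 was lowest at 773, and the nearest intact heart was at 1058, a gap that covers 0.926 of the intact range and exceeds the 95% critical value of Dixon's criterion for 4 samples. Chance gives such a gap in about 1 in 20 groups, so with 41 genes looked at, 1 such gap is no more than chance would give.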

How the results depend on the processing

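No paired analysis was possible because the groups share no animal numbers. The count of proteasome genes passing the limma test was 0 under all 19 alternatives. Over all probe sets it moved from 5 to 0 under quantile normalization, the authors' normalized columns, eBayes without a trend and array weights, to 8 with an offset of 32, and ranged from 0 to 4 when 1 animal was left out. The median log2 fold change of the proteasome genes stayed above 0, between 0.01 and 0.09. The genes above all intact hearts numbered 3 under the authors' columns (7.23% of all genes) and 2 by the mean of probe sets (8.19%) or, of only 23 genes, by annotated symbols (8.57%), and 6 to 13 when 1 animal was left out (10.8% to 22.8%). Those below numbered 3 under scaling to the 75th percentile (8.50%) or to the median of Present probe sets (8.91%), 1 under the authors' columns (8.47%) and 2 of 23 by annotated symbols (9.59%), and 5 to 9 when 1 animal was left out (12.3% to 23.8%). Counts with 1 animal left out compare fewer values, so they are not on the same footing as those from all arrays. Why the counts moved was not tested. The sign of the log2 fold change turned for 18 of the 41 genes, none of them past the test, when 1 animal or another was left out. Of the 18 genes that the naming rule takes, 5 were among them. PSMA8 ranged from -1.83 to 0.39 (positive without animal 2), PSMB3 from -0.076 to 0.85 (negative without animal 13), PSMB6 from -0.046 to 0.13 (negative without animal 14), PSMB7 from -0.012 to 0.14 (negative without animal 2) and PSMB9 from -0.21 to 0.016 (positive without animal 13). With a floor of 100 all arrays of PSMA8 and PSMB3 were at the floor and gave no value. The PSMB8 log2 fold change ranged from -1.23 to -0.17, with adjusted p of 0.338 or more. Its difference from PSMB5 ranged from -1.47 to -0.40 and kept its sign. Dim probe sets such as PSMB3, PSMF1 and PSMA8 lie close to background, where this array limits what can be seen.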
